A study of Mus musculus with 4 samples.

Results

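Chromosomes 3, 14, 17 and 19 of the mouse were read on Agilent comparative genomic hybridisation arrays, on which tumour DNA and normal DNA in different colours compete for the same oligonucleotides. The set held every non-control probe that the array files place on these chromosomes in mm9 (NCBI37), without a stretch of chromosome 14 that holds antigen receptor gene segments (94 probes), which was left out by rule. Of 170260 probes with a value on all arrays, 28193 belonged to it, with 9459 on chromosome 3, 7773 on chromosome 14, 6547 on chromosome 17 and 4414 on chromosome 19. The members were chosen by position, with earlier results of these data known.

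The tumours were 4 liver tumours, numbered 239, 240, 244 and 252, from mice labelled as male and of genotype Fah-/- Trp53-/-. All of these mice received NTBC in their drinking water at 7.5 mg/L, reduced to 2.5% of that dose for 6 months. The control was a single pool of liver DNA from 3 sex-matched littermates of genotype Fah+/+ Trp53+/+, and the same pool was the other colour on all 4 arrays. Both alleles missing in the tumour mice were present in the pool, so genotype and tumour cannot be told apart, and a value shared by all tumours cannot be told apart from an opposite deviation of the pool itself. The labels give the pool's littermates no NTBC schedule of their own.

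Fah makes the enzyme that completes the breakdown of tyrosine, and without it toxic metabolites build up in hepatocytes. NTBC blocks an earlier enzyme of the same route and so holds back that damage. Trp53 encodes p53, which halts or removes cells with damaged DNA, and liver tumours often gain or lose whole chromosomes or arms, which arrays of this kind read as a ratio over many neighbouring probes. All values are log2 of tumour over pool signal, set to 0 at the median of chromosomes 1 to 19 of each array. On this scale a single-copy gain in all cells of a diploid sample would read 0.58 and a single-copy loss -1, while a loss in 10% of the cells would read -0.074.

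The probes that carry the local findings are shown first. They are the lowest probe of a low segment with, where the contrast matters, a neighbour just outside it, and the low probe on which the tumours lay farthest apart within a 5 Mb window of chromosome 14 and within one of chromosome 19. Each is written as in the array files, with G and C in capitals because the mean base composition of bins went with their log2 ratio. The files give no strand.

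Slc25a37, just before the chromosome 14 segment, chr14:69863952-69864011: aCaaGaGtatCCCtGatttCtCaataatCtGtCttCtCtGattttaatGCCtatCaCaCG
Lowest probe of that segment, chr14:69946221-69946280: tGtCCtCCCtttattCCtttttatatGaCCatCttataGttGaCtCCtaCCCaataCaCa
First probe after that segment, chr14:70096263-70096322: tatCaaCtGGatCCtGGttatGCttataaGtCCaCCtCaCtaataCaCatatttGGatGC
Bank1, before its low stretch, chr3:135889878-135889937: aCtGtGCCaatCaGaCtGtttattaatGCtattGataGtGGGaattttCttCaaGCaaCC
Bank1, lowest probe, chr3:135929818-135929877: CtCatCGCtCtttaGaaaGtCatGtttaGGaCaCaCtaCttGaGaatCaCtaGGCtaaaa
Nlgn1, lowest probe, chr3:26214499-26214558: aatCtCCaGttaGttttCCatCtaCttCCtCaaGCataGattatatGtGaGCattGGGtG
Ddhd1, lowest probe, chr14:46235112-46235171: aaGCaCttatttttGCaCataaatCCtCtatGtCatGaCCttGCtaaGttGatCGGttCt
Ddhd1, next probe, chr14:46246153-46246211: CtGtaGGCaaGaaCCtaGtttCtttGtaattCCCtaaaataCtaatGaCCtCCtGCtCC
Slc22a26, lowest probe, chr19:7873699-7873758: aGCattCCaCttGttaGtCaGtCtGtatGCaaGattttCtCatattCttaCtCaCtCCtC
Widest spread of tumours in the chromosome 14 window, chr14:99811882-99811941: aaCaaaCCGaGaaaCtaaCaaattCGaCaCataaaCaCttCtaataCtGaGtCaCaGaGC
Trpm3, widest spread in the chromosome 19 window, chr19:22666235-22666294: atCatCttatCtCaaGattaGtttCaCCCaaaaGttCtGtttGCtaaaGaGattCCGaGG

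Signal was well above background for 99.02% to 99.2% of the spots of these chromosomes in the pool colour and for 99.7% to 99.9% in the tumour colour, with 0 saturated spots. Array noise, taken from differences of adjacent probes, was 0.25 in tumour 239, 0.31 in 240, 0.33 in 244 and 0.36 in 252 (SD, log2 scale). The number of arrays limits the precision of every mean below. In that order, chromosome X stood at -0.11, -0.12, -0.31 and 0.72 and chromosome Y at -0.50, -0.33, -1.30 and -2.65. The library labelled male 252 therefore had X above and Y far below a pool labelled male, which goes against its label, and counts of bins, listed genes, borders and single probes are also given without it. Tumour 244 had 24.2% of its autosomal probes in gained segments and 34.7% in lost segments, so its median lies among changed chromosomes, and its level relative to 0 depends on the centring more than that of the others.

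All 4 chromosomes stayed close to the level of the pool. Their means over the 4 tumours ran from -0.046 for chromosome 3 to 0.065 for chromosome 17, which is a signal of 96.8% to 105% of that of the pool. Chromosome 12 stood at -0.31 ± 0.099 and chromosome 15 at 0.25 ± 0.085 (SD, n = 4) in the same tumours. Chromosomes 14 and 19 had the means closest to 0 of the 20 chromosomes tested. With 4 tumours the exact two-sided sign-flip permutation test cannot go below p = 0.13, so no chromosome mean could pass 0.05.

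**Figure D1:**
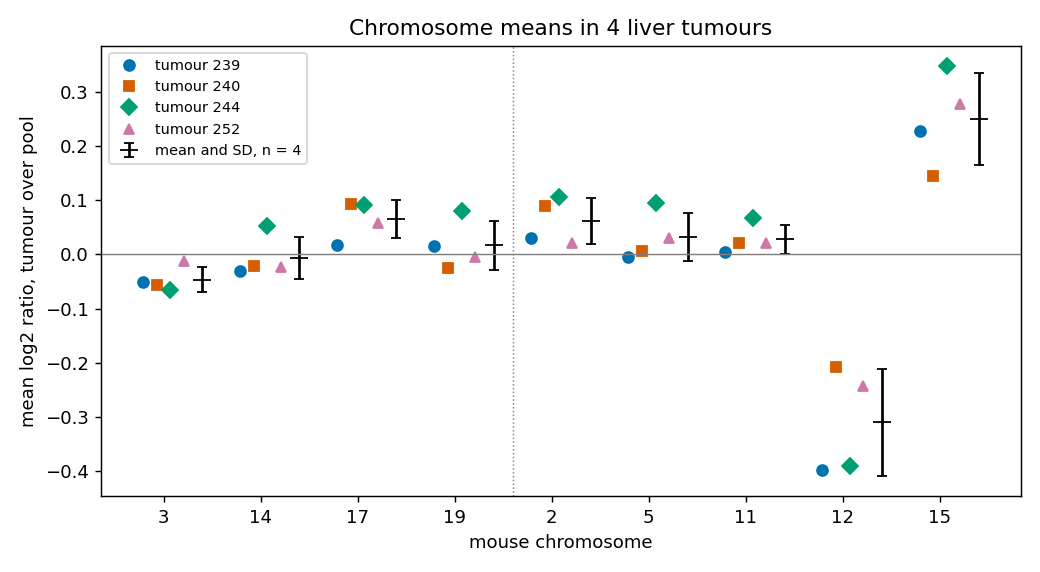
The vertical axis is the mean log2 ratio of tumour over pool and the horizontal axis the chromosome; each marker is 1 tumour and the black bar with caps the mean and SD over 4 tumours, with comparison chromosomes right of the dotted line. Chromosome 3 lies below 0 in all 4 tumours and chromosome 17 above it, both within 0.1 of 0, while chromosomes 12 and 15 reach -0.40 and 0.35.

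Chromosome 3 had a mean of -0.052 in tumour 239, -0.056 in tumour 240, -0.0655 in tumour 244 and -0.012 in tumour 252. All 4 tumours were below 0, with tumour 252 nearest to it, and the mean was -0.046 ± 0.023 (SD, n = 4; exact sign-flip permutation test, p = 0.13, adjusted p = 0.28 over 20 chromosomes). The sign held under each other centring as a mean, although tumour 252 came to 0.0026 when each array was centred on the mode of its probes, and centring on chromosomes 2, 5 and 11 gave a mean of -0.10. Against the mean of chromosomes 2, 5 and 11, which had no whole-chromosome call, chromosome 3 lay at -0.064, -0.10, -0.16 and -0.0365 in tumours 239, 240, 244 and 252. That difference of -0.089 ± 0.052 (SD, n = 4) does not depend on where an array is centred and had p = 0.13 by the same exact permutation test (adjusted p = 0.25 over 4 chromosomes). Cut into 3 stretches with equal numbers of probes, it stood at -0.063, -0.028 and -0.048 from proximal to distal, and the distal stretch was higher than the proximal stretch by 0.015 ± 0.014 (SD, n = 4; higher in 4 of 4 tumours; exact permutation p = 0.13, adjusted p = 0.16 over 19 autosomes).

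Chromosome 14 had a mean of -0.030 in tumour 239, -0.022 in tumour 240, 0.052 in tumour 244 and -0.024 in tumour 252. Tumour 244 was the only 1 of the 4 above 0, and the mean was -0.0059 ± 0.039 (SD, n = 4; exact permutation p = 0.875). Against chromosomes 2, 5 and 11 all tumours were lower, at -0.042, -0.066, -0.040 and -0.048, and here tumour 244 lay close to tumour 239. The mean of this difference was -0.049 ± 0.012 (SD, n = 4, exact permutation p = 0.13, adjusted p = 0.25). The distal stretch differed from the proximal stretch by -0.053 in tumour 239, -0.062 in tumour 240, -0.036 in tumour 244 and -0.068 in tumour 252. That difference, -0.055 ± 0.014 (SD, n = 4; exact permutation p = 0.13, adjusted p = 0.16), had the same sign in 4 of 4 tumours and was -0.023 as a difference of medians over probes.

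Chromosome 17 had a mean of 0.018 in tumour 239, 0.093 in tumour 240, 0.092 in tumour 244 and 0.058 in tumour 252, all above 0 with tumour 239 lowest. The mean was 0.065 ± 0.0355 (SD, n = 4; exact permutation p = 0.13, adjusted p = 0.28). It was 0.022 ± 0.023 (SD, n = 4; exact permutation p = 0.25) above chromosomes 2, 5 and 11, with tumours 239 and 244 within 0.0059 of them. Centred on those chromosomes its mean was 0.0094, with 2 tumours on each side of 0. Its stretches stood at 0.073, 0.051 and 0.072, and the distal stretch minus the proximal one was -7.3e-04 ± 0.0083 (SD, n = 4; exact permutation p = 1), with 2 tumours on each side of 0.

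Chromosome 19, the shortest, had a mean of 0.016 in tumour 239, -0.025 in tumour 240, 0.081 in tumour 244 and -0.0056 in tumour 252. The tumours lay on both sides of 0, and the mean was 0.017 ± 0.046 (SD, n = 4; exact permutation p = 0.75). Its mean turned to -0.039 when the arrays were centred on chromosomes 2, 5 and 11. The distal stretch exceeded the proximal stretch by 0.051 in tumour 239, 0.051 in tumour 240, 0.0365 in tumour 244 and 0.050 in tumour 252. This difference of 0.047 ± 0.0070 (SD, n = 4; exact permutation p = 0.13, adjusted p = 0.16) had the same sign in 4 of 4 tumours.

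Set against each other, chromosome 3 was lower than chromosome 17 in all tumours, by a mean difference of -0.11 ± 0.048, and lower than chromosome 19 by a mean difference of -0.063 ± 0.061. Chromosome 14 was lower than chromosome 17 by a mean difference of -0.071 ± 0.034 (each SD, n = 4; each exact permutation p = 0.13, adjusted p = 0.19 over 6 pairs). Chromosome 3 and chromosome 14 differed by a mean of -0.041 ± 0.055, with the opposite sign in tumour 252 (exact permutation p = 0.25).

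Circular binary segmentation, which splits a chromosome where the mean of consecutive probes changes, placed no whole chromosome of the 4 above 0.2 or below -0.2. No segment was called gained on these chromosomes in any tumour. The highest, in tumour 244, spanned chr14:56884806-61872506 with 412 probes at 0.198, and the same probes read 0.053, 0.12 and 0.11 in tumours 239, 240 and 252. Lost segments held 1.84% of the probes of the 4 chromosomes in tumour 239, 0.0993% in tumour 240, 0.0816% in tumour 244 and 0.149% in tumour 252. Over all autosomes the share in lost segments was 6.17%, 4.37%, 34.7% and 3.46%, and in gained segments 5.16%, 0.694%, 24.2% and 4.14%, in the same order. The 4 chromosomes were therefore below the whole autosomal share of lost and of gained probes in every tumour. They were chosen with earlier results of these data known, so this is a description and not a test. In tumour 244, the other autosomes had 71.3% of their probes in called segments.

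Segmentation found 58 borders in all, counted per tumour, and 37 places once shared borders were joined and pieces of fewer than 40 probes set aside. Of these, 13 lay on chromosome 3, 17 on chromosome 14, 2 on chromosome 17 and 5 on chromosome 19. Tumour 239, the array with the least noise between neighbouring probes, had 27 of the 37, and 25 were found in it alone; whether its noise sets that number was not tested. The step at a place is the difference of the means of up to 200 probes on each side, and it was read in all 4 tumours wherever 1 of them had the border. The lower side was the one with less G and C in its probes at 28 of 37 places. Correcting each probe for base composition left 26 borders, against 58 without it. Without tumour 252 there were 47 borders and 34 places. Other settings gave 51 borders (normexp background correction), 74 (lowess), 79 (merging at 0.05), 82 (at least 10 probes) and 86 (dim probes left out). With lone outlying probes drawn in there were 198, and with each tumour set against the mean of the others 7.

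In chromosome 3 every border was found in tumour 239 alone at the main settings. With segments of at least 10 probes tumour 252 had 11 borders there. With lone outlying probes drawn in, tumours 240, 244 and 252 had 20, 14 and 14. At the main settings the sharpest pair bounded chr3:98435312-99033676. This stretch has Hsd3b5, a liver steroid dehydrogenase, at its proximal border and Wars2, a mitochondrial tryptophan tRNA synthetase, at its distal border. Its 45 probes read -0.27, -0.27, -0.24 and -0.25 in tumours 239, 240, 244 and 252, so the 4 tumours had almost the same value although a border was called in 1. The level rose at its distal end by 0.33, 0.33, 0.29 and 0.36. A second stretch, chr3:105823095-106712610, bordered by Pifo, a gene of the primary cilium, held 66 probes at -0.25, -0.18, -0.17 and -0.15, lowest in tumour 239.

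The longest called segment of the 4 chromosomes was chr3:41565143-48042670, with 219 probes at -0.22, -0.17, -0.19 and -0.16 in tumours 239, 240, 244 and 252. Only 5.94% of its probes carried a gene name, against 54.4% over chromosome 3. Sclt1, a gene of the centriole, lay at its proximal border. Inside it was the longest run of 1 Mb bins called lower, 4 bins from 42000001 to 46000000 with 141 probes, whose named genes included Pcdh10, a protocadherin of cell adhesion. The run read -0.22, -0.17, -0.21 and -0.15, below 0 in every tumour. Other borders of chromosome 3 lay at Ntng1, a netrin-related guidance gene (109800378 to 109806204; steps of -0.21, -0.15, -0.12 and -0.165), and at Cth, which makes cysteine from cystathionine (157543927 to 157557093). At Cth the step was -0.10 in tumour 239 but 0.0076, 0.031 and 0.017 in the other tumours, so it was not shared.

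In chromosome 14, 2 places were borders in all 4 tumours, although with probes corrected for base composition tumour 252 had 0 borders there. At Wdfy4, a gene of antigen presentation, between 33774379 and 33781612, the 200 probes on the proximal side read 0.078, 0.047, 0.145 and 0.091 in tumours 239, 240, 244 and 252, and the 200 on the distal side -0.17, -0.19, -0.14 and -0.18. The step was -0.24, -0.23, -0.28 and -0.27, a mean of -0.26 ± 0.023 (SD, n = 4), and the tumours on the 2 sides did not overlap. The border was placed by these same values, so this is a description. As a difference of medians the step was smaller, at -0.14, -0.17, -0.20 and -0.19. Between 35000001 and 40000000, inside the lower stretch, 24 of 327 probes were at -1 or lower in at least 1 tumour. The other 303 read -0.023, -0.042, 0.025 and -0.049. Base composition hardly differed across it, with 36.8% and 36.9% G and C. The lower stretch ended at 41710441 in tumour 239, 41828982 in tumour 244, 44380456 in tumour 240 and 44569739 in tumour 252. The other border found in all tumours encloses the small segment described below. Dct, a melanin enzyme, lay at a border found in tumours 240 and 252 (118439944 to 118445610), where the level rose by 0.16, 0.21, 0.22 and 0.21.

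On chromosome 17 tumour 239 alone was split, into a stretch from 16169550 to 23688406 whose 496 probes read -0.12, against -0.0041, -0.0014 and -0.061 in tumours 240, 244 and 252. Its probes had 36.1% G and C against 36.8% on the chromosome, and 28.4% of them carried a gene name against 59.8%. The other 3 tumours were single pieces at 0.093, 0.092 and 0.058. On chromosome 19 tumour 239 was split into 7 pieces and the other tumours were single pieces. With probes corrected for base composition, tumour 239 was a single piece on both chromosomes. With lone outlying probes drawn in, tumours 240, 244 and 252 had 9, 7 and 13 pieces on chromosome 17. On chromosome 19 they then had 5, 5 and 7. The stretch from Hells, a chromatin remodeller, to Cyp2c70, a bile acid hydroxylase (chr19:39039925-40254025), held 77 probes at -0.24, -0.14, -0.028 and -0.18. It was lowest in tumour 239, near 0 in tumour 244, and its probes had 35.9% G and C.

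When each tumour was compared with the mean of the other tumours, so that the pool drops out, 13 of 16 pairs of chromosome and tumour were single pieces. Tumour 239 had short pieces of -0.13 at chr3:158303220-159598830, -0.13 at chr19:38881954-40369402 and -0.099 at chr19:44502367-46307846. Tumour 244 had 1 piece of 0.34 at chr14:96574103-97360449, where its 55 probes read -0.0059 and those of tumours 239, 240 and 252 read -0.22, -0.405 and -0.40.

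**Figure D2:**
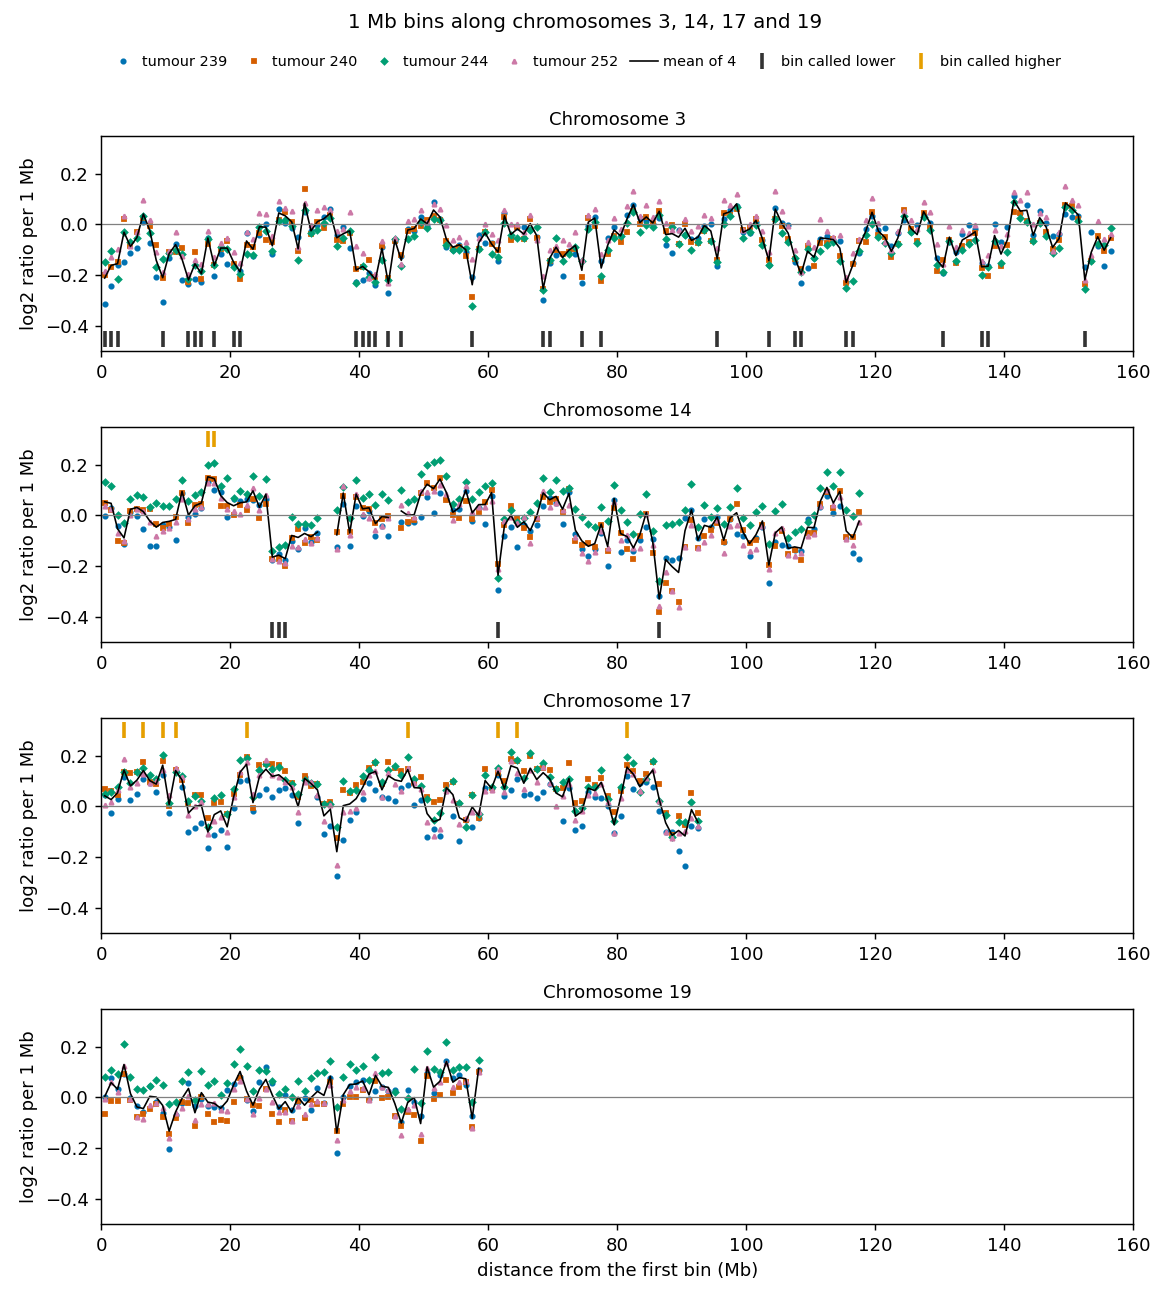
The vertical axis is the mean log2 ratio of a 1 Mb bin and the horizontal axis the distance from the first bin of the chromosome in Mb; markers are tumours, the line is their mean, and ticks mark bins called lower or higher. Called lower bins lie mostly on chromosome 3 with 31, and called higher bins mostly on chromosome 17 with 9.

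Bins of 1 Mb with at least 5 probes were tested against 0 with limma over all 2537 bins of chromosomes 1 to 19 and X, of which 8.47% were lower and 4.61% higher at a Benjamini-Hochberg adjusted p below 0.05. On chromosome 3, 31 of 157 bins (19.7%) were lower and 0 higher; robust limma gave the same counts, and at an unadjusted p below 0.05 there were 61 lower and 3 higher. Chromosome 14 had 6 lower and 2 higher of 115 bins. Chromosome 17 had 9 higher (9.68%) and 0 lower of 93 bins, with 39 higher and 5 lower at an unadjusted p below 0.05 and 13 higher and 0 lower by robust limma. Chromosome 19 had 0 of 59 bins called in either direction by limma and by robust limma, with 4 lower and 5 higher at an unadjusted p below 0.05. The shares on chromosome 3 for lower bins and on chromosome 17 for higher bins were above those of all bins, and the other shares below them.

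These counts changed with the array left out: on the 4 chromosomes they fell without tumour 239, 240 or 252 and rose without tumour 244. Without tumour 239 limma called 0 bins in the whole genome (on the 4 chromosomes, 48 were lower and 32 higher at an unadjusted p below 0.05), and without tumour 240 it called 1 lower bin on the 4 chromosomes, which was on chromosome 14. Over the whole genome it called 65 lower and 32 higher bins without tumour 240, 596 and 311 without tumour 244, and 132 and 37 without tumour 252. Without tumour 244 it called, on these chromosomes, 52, 40, 2 and 8 lower bins on chromosomes 3, 14, 17 and 19 and 2, 10, 30 and 5 higher ones. Without tumour 252, the library that goes against its label, 4 lower bins were called on chromosome 3 and 2 on chromosome 14.

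The lowest bin of chromosome 3, from 71000001 to 72000000, read -0.30, -0.25, -0.26 and -0.21 in tumours 239, 240, 244 and 252 (mean -0.25 ± 0.038, SD, n = 4; limma adjusted p = 0.016) and 0 of its 32 probes carried a gene name. Chromosome 14 was lowest from 94000001 to 95000000, in a stretch named for Pcdh9, a protocadherin, at -0.32, -0.38, -0.26 and -0.36 (mean -0.33 ± 0.053, SD, n = 4, limma adjusted p = 0.016). Very low single probes weigh on that mean, the lowest at -3.34, -3.86, -3.87 and -3.43. From 90000001 to 95000000, 12 of 222 probes were at -1 or lower in at least 1 tumour. The other 210 read -0.080, -0.10, -0.014 and -0.087. The longest lower run of chromosome 14, from 34000001 to 37000000, follows the Wdfy4 border. It is named for Grid1, a glutamate receptor subunit, Arhgap22, a Rac regulator, and Bmpr1a, a receptor for bone morphogenetic proteins. Its 236 probes read -0.17, -0.18, -0.13 and -0.18. The 2 higher bins of chromosome 14 adjoined each other from 24000001 to 26000000, named for Kcnma1, a potassium channel, Dlg5, a cell polarity scaffold, and Polr3a, a subunit of RNA polymerase III. They read 0.12, 0.15, 0.20 and 0.13.

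The called higher bins of chromosome 17 did not adjoin, and the first, from 6000001 to 7000000, was named for Tulp4, Ezr, which links actin to the membrane, and Synj2, a lipid phosphatase. It read 0.12, 0.13, 0.14 and 0.19 (mean 0.14 ± 0.030, SD, n = 4; limma adjusted p = 0.043). The highest bin of chromosome 17, from 25000001 to 26000000, read 0.11, 0.19, 0.19 and 0.175. The lowest bin of chromosome 19, from 39000001 to 40000000, is the Cyp2c gene cluster of drug-metabolising enzymes, at -0.22, -0.13, -0.039 and -0.17, and was not called (limma adjusted p = 0.084).

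On chromosome 3 the called lower bins were poor in named genes, with a median of 12.5% of probes with a gene name, against 59.0% in the bins not called. On chromosome 14 the called lower bins had 56.6%, against 60.2%. The called higher bins of chromosome 17 had 68.3%, against 56.5%. As a description across bins, which share the arrays and the pool, the correlation of a bin's log2 ratio with its share of named probes was 0.38 to 0.49 on chromosome 3 (157 bins), 0.25 to 0.42 on chromosome 14 (115 bins), 0.54 to 0.64 on chromosome 17 (93 bins) and 0.32 to 0.55 on chromosome 19 (59 bins) over the 4 tumours. With the G and C content of the probes it was 0.19 to 0.26, 0.25 to 0.33, 0.45 to 0.63 and 0.35 to 0.48. Gene content and base composition moved with the log2 ratio in every tumour, and their part in the called bins was not tested beyond the correction for base composition of probes, which left 21 lower bins on chromosome 3 and 5 higher bins on chromosome 17.

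The clearest local difference between tumours and pool was a segment of 214 kb at chr14:69876584-70090608, found with the same ends in all 4 tumours. With probes corrected for base composition it was called in 3 tumours and not in tumour 252, whose chromosome 14 then had 0 borders; the mean over tumours ran from -0.91 to -0.72 over the alternatives. Its 23 probes had a mean of -0.95 in tumour 239, -0.81 in tumour 240, -0.865 in tumour 244 and -0.80 in tumour 252, which is 51.9%, 57.2%, 54.9% and 57.4% of the signal of the pool. The 40 probes around it, 20 on each side, read -0.0058, 0.027, 0.060 and -0.0026, and the tumours in the segment and beside it did not overlap. All 23 probes were below 0 in all 4 tumours, 16 were at -0.5 or lower and 4 at -1 or lower in all 4. The ends of the segment were placed by these same values, so this is a description and not a test. The mean of -0.85 ± 0.067 (SD, n = 4) stands beside the -1 of a single-copy loss in all cells. In the same tumours chromosome 12 stood at -0.31 ± 0.099 (SD, n = 4). With each tumour set against the mean of the other tumours, so that the pool drops out, the segment was called in no tumour. A value shared by all tumours drops out there as well, so a loss in the tumours cannot be told apart from an opposite deviation of the pool. The pool came from other mice, so such a loss cannot be told apart from a difference between the animals either.

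The segment spans Slc25a37, the mitochondrial iron importer of haem synthesis, Entpd4, a Golgi nucleotidase, and Loxl2, a lysyl oxidase that cross-links collagen. Slc25a37 read -0.98, -1.08, -0.94 and -0.89 on the 3 of its probes inside the segment, while its probe just outside, printed above, read -0.017, 0.52, 0.77 and 0.32. Entpd4 read -1.03, -0.72, -0.61 and -0.66 on 3 probes. Loxl2 read -0.80, -0.76, -0.79 and -0.79 on 9 probes, the narrowest spread of tumours among the segment's genes. The other genes had 1 to 3 probes there, so these spreads are of means over unlike numbers of probes. The lowest probe, printed above, carries only an Ensembl transcript name and read -1.92, -1.415, -2.49 and -1.504. The first probe after the segment read 0.11, -0.11, 0.12 and -0.16. Beside it, Stc1, a secreted glycoprotein hormone, read 0.10, 0.43, 0.30 and 0.26 on 2 probes, above 0 in all tumours.

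**Figure D3:**
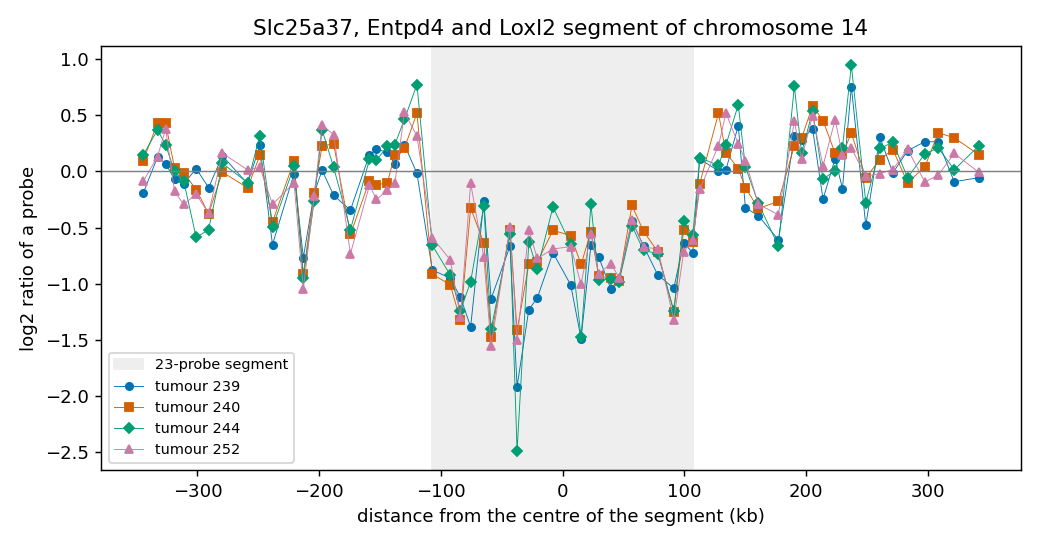
The vertical axis is the log2 ratio of single probes and the horizontal axis the distance from the segment's centre in kb; lines join the probes of each tumour and the grey band is the 23-probe segment. Inside the band all probes of all tumours are below 0, down to -2.49, and outside it they scatter around 0.

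The other 5 small segments were each found in 1 or 2 tumours. Bank1, a B-cell scaffold gene, had 5 probes (chr3:135899941-135947961) at -1.06, -1.21, -1.15 and -1.16, called in tumour 239. Of these, 2 were at -1 or lower in all tumours and the lowest, printed above, read -2.47, -2.45, -2.61 and -2.68, against 0.27, 0.12, 0.10 and 0.31 on the probe before the segment. Without that lowest probe the other 4 read -0.71, -0.90, -0.78 and -0.78, and the medians of the 5 were -0.62, -0.68, -0.44 and -0.45. Of those 4, 1 read -2.20, -2.28, -2.32 and -2.28, and single values of the rest ran from -0.68 to 0.19. The Bank1 segment thus rested largely on 2 probes. Ddhd1, a phospholipase gene, with its neighbour 4930527F14Rik had 5 probes (chr14:46180791-46235171) at -0.77, -0.88, -0.81 and -0.94. The lowest of them read -2.39, -2.44, -2.48 and -2.67, and the next probe 0.22, 0.48, 0.43 and 0.79. Without that lowest probe, the other 4 read -0.36, -0.49, -0.40 and -0.51, so this segment rested largely on 1 probe.

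Nlgn1, a neuronal adhesion gene, had 5 probes (chr3:26185123-26227901) at -0.84, -0.70, -0.66 and -0.58, all below 0 in all tumours, and these stayed at -0.71, -0.59, -0.56 and -0.53 without the lowest. That lowest probe, printed above, read -1.35, -1.15, -1.02 and -0.79. Fhit, a gene that spans a known fragile site, had 14 probes (chr14:11363930-11506674) at -0.34, -0.43, -0.39 and -0.46, of which 10 were below 0 in all tumours; the segment was called in tumour 252, the library that goes against its label. The organic anion transporter genes Slc22a29, Slc22a26 and Slc22a28 (chr19:7839842-8609783) had 25 probes at -0.31, -0.22, -0.14 and -0.28, called in tumour 239, with 15 below 0 in all tumours. The Slc22a26 probe printed above read -1.62, -1.56, -1.51 and -1.49, and only 1 of the 25 probes was at -1 or lower in all tumours.

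Single probes at -1 or lower in all 4 tumours made up 0.497% of chromosome 3, 0.785% of chromosome 14, 0.443% of chromosome 17 and 0.204% of chromosome 19, against 0.635% of all autosomal probes. Probes at 0.58 or higher in all tumours made up 0.180%, 0.630%, 0.810% and 0.476%, against 0.623%. The lowest shares were those of chromosome 19 for low probes and of chromosome 3 for high probes. Over the 3 tumours other than 252 the shares were 0.624%, 0.836%, 0.458% and 0.249% for low probes (0.703% of all) and 0.233%, 0.695%, 0.886% and 0.612% for high probes (0.70% of all).

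The tumours parted most on chromosome 14 between 95000001 and 100000000. Here 23 of 249 probes were at -1 or lower in at least 1 tumour, and their mean was -0.79 in tumour 239, -1.74 in tumour 240, -0.53 in tumour 244 and -1.69 in tumour 252. Tumours 240 and 252 had 20 and 19 of these probes at -1 or lower, tumour 239 had 8 and tumour 244 had 1. The 226 probes left once these are set aside read -0.011, -0.028, 0.075 and -0.038, and all 249 together -0.0825, -0.19, 0.0195 and -0.19. Tumours 240 and 252 were thus lower than tumours 239 and 244 as a mean of all 249 probes, which includes the 23 low ones. Among the 226 others, tumour 239 at -0.011 lay close to tumours 240 and 252, and only tumour 244 was above 0. With tumour 252 left out of the choice of probes, 22 were low, at -0.80, -1.77, -0.53 and -1.71. In the 5 Mb before it, the 12 low probes read -1.37, -1.53, -1.32 and -1.49, and in the 5 Mb after it the 10 low probes -1.53, -1.70, -1.54 and -1.77, with little difference between tumours.

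The low probe of this window with the widest spread, printed above, read -1.04 in tumour 239, -4.08 in tumour 240, -0.92 in tumour 244 and -3.83 in tumour 252. A probe of Klhl1, a neuronal actin-binding gene, at chr14:96673310-96673369 read -0.92, -2.25, -0.53 and -1.74, and a probe of Dach1, a transcription cofactor of development, at chr14:98523054-98523113 read -0.71, -2.08, -0.71 and -2.05. Of the 53 windows of 5 Mb with at least 4 such probes on the 4 chromosomes, the spread of tumour means had a median of 0.24, and this window had the widest at 1.21. The next was chromosome 19 between 20000001 and 25000000, where 10 such probes read -0.56, -1.22, -0.34 and -0.59. Of these, 0, 8, 2 and 1 were at -1 or lower in tumours 239, 240, 244 and 252. Most were thus chosen through tumour 240, and its low mean follows from that choice. The other 395 probes of the window read 0.041, -0.0059, 0.11 and 0.014. There the Trpm3 probe printed above, from a gene of a calcium-permeable channel, read -0.14, -1.55, 0.42 and -0.22. Both windows were picked for their values, so they are described and not tested.

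**Figure D4:**
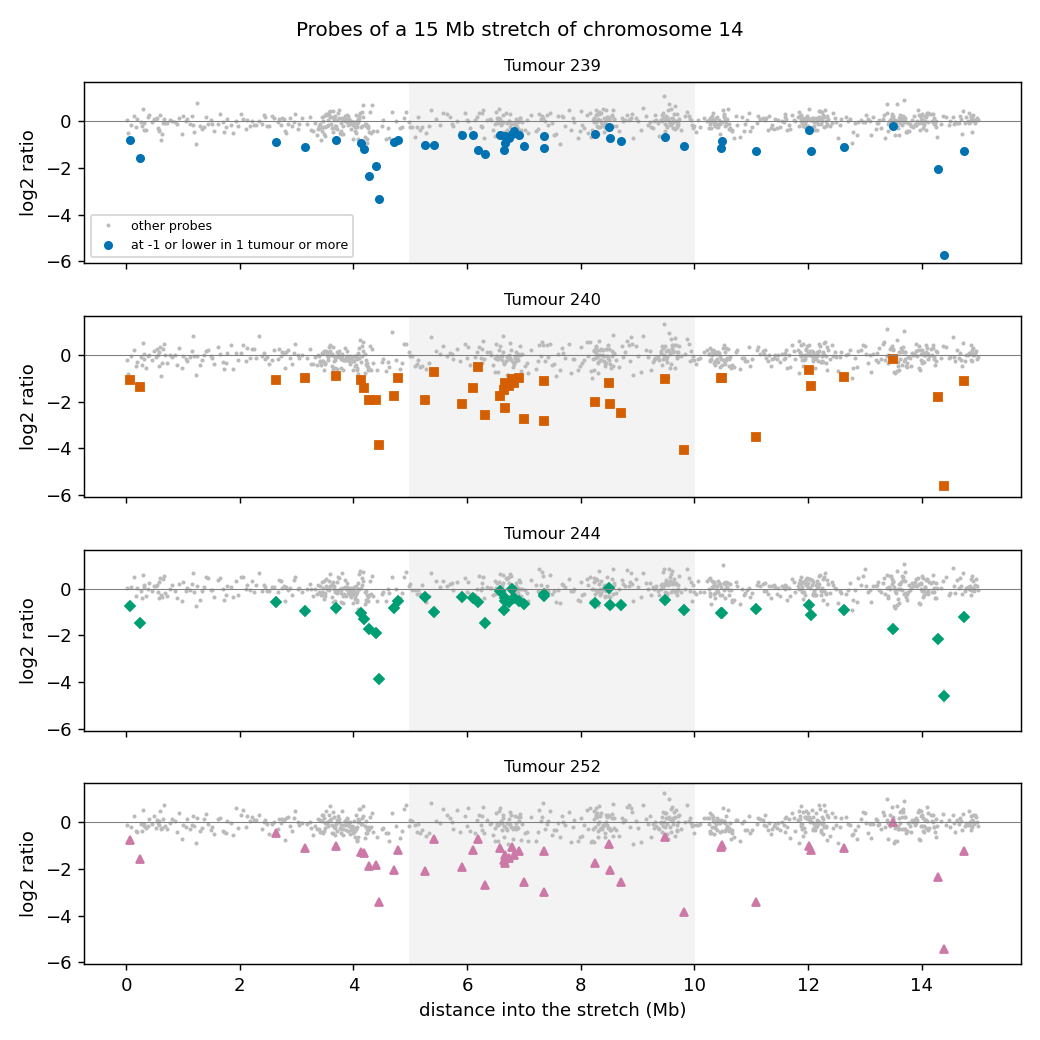
Each panel is 1 tumour; the vertical axis is the log2 ratio of a probe and the horizontal axis the distance in Mb into a 15 Mb stretch of chromosome 14 that starts at 90 Mb, with probes at -1 or lower in any tumour in colour and the 5 Mb window shaded. In the shaded window, the coloured probes of tumours 240 and 252 average -1.74 and -1.69 and those of tumours 239 and 244 average -0.79 and -0.53.

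Genes were tested the same way, by the mean of the probes that carry a name, over 18692 genes, of which 15.2% were lower and 17.7% higher by limma (adjusted p below 0.05). The 5 lists of cancer, liver and immune genes held 230 names, of which 185 were measured on the 4 chromosomes. Of these, 18 were lower (9.73%) and 39 higher (21.1%), with a median of 0.031 against 0.024 over all genes. Among all 2992 genes of the 4 chromosomes 14.2% were lower and 20.7% higher, with a median of 0.036. The higher share of the listed genes was thus close to that of their own chromosomes. Without tumour 252 the listed genes called lower and higher numbered 17 and 21, and without tumour 240 they numbered 7 and 17. Of 110 listed genes with 3 or more probes 9 were lower and 18 higher. Of 75 with fewer probes 9 were lower and 21 higher, so the share called was larger where fewer probes were averaged. Over all genes, 10.8% were lower and 12.9% higher with 3 or more probes, and 19.03% and 21.9% with fewer. By chromosome, 10 of 44 listed genes of chromosome 3 were lower and 7 higher, 3 of 33 of chromosome 14 lower and 6 higher, 3 of 59 of chromosome 17 lower and 17 higher, and 2 of 49 of chromosome 19 lower and 9 higher.

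Of the oncogenes and growth signalling genes, 3 of 55 measured were lower and 13 higher (median 0.024), which is 5.45% and 23.6%. Sos1, which loads Ras with GTP, was higher at 0.15, 0.20, 0.31 and 0.28 in tumours 239, 240, 244 and 252 on 9 probes (mean 0.24 ± 0.074, SD, n = 4; limma adjusted p = 0.019); without tumour 240 or tumour 252 the limma adjusted p was 0.076 or 0.071. Jak2, the kinase of cytokine receptors, was higher at 0.30, 0.089, 0.42 and 0.30 on 6 probes (mean 0.28 ± 0.14, SD, n = 4; limma adjusted p = 0.020), lowest in tumour 240. Its limma adjusted p was 0.057 without tumour 239, 0.056 without tumour 244 and 0.092 after normexp background correction. Pik3ca, the catalytic subunit of PI3 kinase, read 0.037, 0.12, 0.205 and 0.25 on 4 probes and did not pass (limma adjusted p = 0.090). Nras, a Ras gene with 1 probe, read 0.036, -0.28, -0.20 and -0.36, with tumour 239 on the other side of 0 (limma adjusted p = 0.079).

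The other growth genes named by rule did not pass. Mecom, a transcription factor gene with 49 probes, read 0.0495, 0.020, -0.019 and 0.046, which placed it within 0.05 of 0 in each tumour. Tcf7l2, a partner of beta-catenin with 21 probes, read 0.073, -0.028, 0.0685 and -0.0085. Ccnd3, the cyclin D3 gene, had a mean of 0.082 on 11 probes, and Vegfa, the vascular growth factor gene, one of -0.083 on 3. Means of Wnt5a (a Wnt ligand), Klf5 (a growth-related transcription factor), Pim1 (a survival kinase, 1 probe) and Rela (a subunit of NF-kappaB) lay between -0.054 and 0.051.

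Of the tumour suppressors, 3 of 39 measured were lower and 7 higher (median 0.031). Rb1, the retinoblastoma gene, was below 0 in all tumours, at -0.145, -0.21, -0.073 and -0.097 on 15 probes, and did not pass (limma adjusted p = 0.11). Tsc2, which restrains mTOR, was higher at 0.22, 0.22, 0.29 and 0.37 on 4 probes (limma adjusted p = 0.011), in a bin of mean 0.135, but not when dim probes were left out (0.13; limma adjusted p = 0.11). Men1, the menin gene, was higher at 0.63, 0.36, 0.72 and 0.38 on 1 probe (limma adjusted p = 0.0034), against 0.13 for the bin around it; after normexp correction it read 0.20 (limma adjusted p = 0.090).

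Lats2, a kinase of the Hippo pathway, read -0.027, 0.22, 0.54 and 0.46 on 6 probes and was called higher (limma adjusted p = 0.0497), although tumour 239 was below 0. This call was lost without tumour 240, 244 or 252 (limma adjusted p = 0.115, 0.17 and 0.098) and under 5 other settings. Fhit as a whole, with 165 probes, read -0.086, -0.090, -0.018 and -0.086 (limma adjusted p = 0.35), a smaller shift than that of the 14 probes described above. Cdkn1a, the p53 target that halts the cell cycle, read -0.33, -0.50, -0.086 and -0.080 on 1 probe (limma adjusted p = 0.056). The means of Fbxw7, a ubiquitin ligase gene, Pbrm1, a chromatin remodeller, Igf2r, a clearing receptor of growth factors, Axin1, a scaffold of the Wnt pathway, Fas, a death receptor, and Sufu, a brake of hedgehog signalling, lay between -0.082 and 0.15, and these genes did not pass.

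Of the hepatocyte and xenobiotic genes, 9 of 47 measured were lower and 8 higher (median 0.0045). Plg, which encodes plasminogen, was lower at -0.22, -0.26, -0.31 and -0.25 on 5 probes (mean -0.26 ± 0.037, SD, n = 4; limma adjusted p = 0.011), while the bin around it stood at 0.16; without tumour 240 the limma adjusted p was 0.061. Mat1a, the liver methionine adenosyltransferase, was lower at -0.068, -0.65, -0.35 and -0.34 on 2 probes (limma adjusted p = 0.024), a call lost without tumour 240 or 244 (limma adjusted p = 0.10 and 0.0835) and after normexp correction, which gave -0.098. Gstm1, a glutathione transferase, was higher at 0.68, 0.44, 0.17 and 0.84 on 1 probe (limma adjusted p = 0.0093), against 0.060 for its bin. Aldh1a1, a retinal dehydrogenase, read 0.035, -0.36, -0.14 and -0.24 on 3 probes and did not pass (limma adjusted p = 0.11). Gclm, a subunit of glutathione synthesis, Gata4 and Hhex, transcription factors of liver development, Cbs, which makes cystathionine, and Scd1, a fatty acid desaturase, had means between -0.083 and 0.14 and did not pass.

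**Figure D5:**
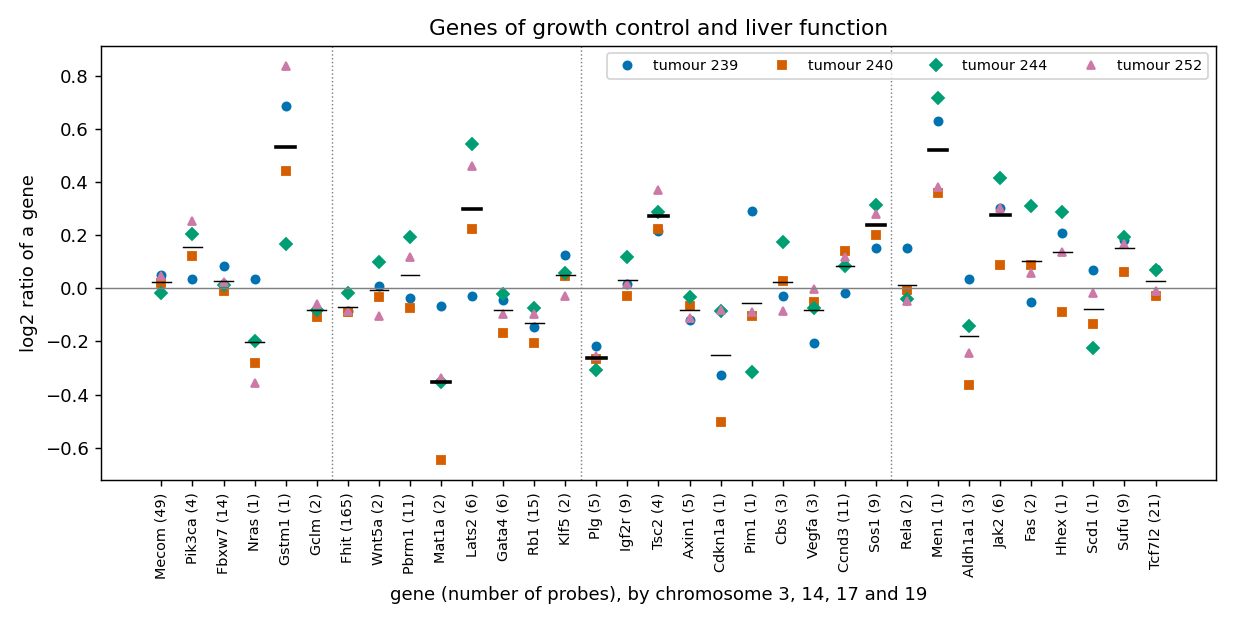
The vertical axis is the log2 ratio of a gene, the mean of its probes, and the horizontal axis lists genes named in the text by chromosome with their number of probes; markers are tumours and bars their mean, thick where limma called the gene. The 8 called genes, 6 higher and 2 lower, have at most 9 probes, while Fhit with 165 and Mecom with 49 lie within 0.1 of 0.

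Of the mitosis and DNA repair genes 1 of 23 measured was lower and 6 higher (median 0.077), and of the immune genes 2 of 21 were lower and 5 higher (median 0.066). The lists were drawn with earlier results of these data known, so their counts stand beside the background shares and carry no test of their own. Of the 37 genes named by rule, 35 were measured and Mcl1 and Bap1 had no probe of that name; 2 of the 35 were lower (5.71%) and 6 higher (17.1%), beside 15.2% and 17.7% of all genes.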

How the data were processed

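Tumour and pool DNA were compared on 4 two-colour Agilent mouse CGH arrays of 180880 spots each, tumour in Cy5 and pool in Cy3 per the labels, without a dye swap. The authors used Agilent Feature Extraction 12.0.0, per the submitters' processing notes. Per the file headers, that program subtracted background from each deposited intensity, removed spatial trends and applied linear dye normalisation. The deposited log10 ratio sets tumour against pool, and it is also what the authors deposited as their value table, uncentred.

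After 95 to 120 outlier spots per array were dropped, repeat spots were averaged per probe, and log2 ratios were centred on the median of all autosomal probes; neither loess nor quantile normalisation was applied. Circular binary segmentation was written for this purpose, with 200 shuffles, the 99th percentile, at least 5 probes, merging below 0.1 and calls at 0.2 and -0.2. Bins and genes were fitted with limma 3.58.1 in R 4.3.3, with an intercept only. Segmentation and limma were tested on simulated data. Chromosome values were tested by exact two-sided sign-flip permutation over tumours. RefSeq symbols matched 2657 of 2992 gene names. Alternatives covered centring, background correction, dim probes, the value table, intensity trend, base composition, bin size, segmentation settings and each tumour left out.

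The members and gene lists were chosen with earlier results of these data known. By rule the text names listed marker genes (some are not reported here), genes at borders or in small segments and, in the longest run of called bins, up to 3 genes with the most probes. Genes of the Cyp2c bin, Pcdh9, Stc1, Klhl1, Dach1 and Trpm3 were chosen after their values were seen.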

Additional observations from a re-analysis of the deposited data

Results flagged for a closer look

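A result is given here where 1 of the 4 tumours lay much farther from the rest than these lay from each other (Dixon's test at 95%). Of 53 results tested, 3 met this, all through tumour 244, and chance alone gives about 1 in 20.

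The mean of chromosome 14 was 0.0522 in tumour 244 against -0.0302 to -0.0216 in the others. The distal minus the proximal stretch of chromosome 19 was 0.0365 in tumour 244 and 0.0496 to 0.0509 in the others. Fhit, over 165 probes, read -0.0182 in tumour 244 and -0.0901 to -0.0857 in the others.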

How the results depend on the processing

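The means of chromosomes 3 and 17, the differences from chromosomes 2, 5 and 11 and the distal minus proximal differences of chromosomes 3, 14 and 19 kept their sign under every alternative run on them. None of these could pass 0.05 with 4 tumours. The mean of chromosome 14 turned to 0.0126 as a median over probes and ran from -0.0253 to 0.0022 with a tumour left out. That of chromosome 19 turned to -0.0072 with arrays centred on the mode of bins, -0.0391 on chromosomes 2, 5 and 11 and -0.0225 with normexp, and ran from -0.0049 to 0.0303 with a tumour left out. The distal minus proximal difference of chromosome 17 was 0.0016 as a median and -0.0030 to 0.0027 with a tumour left out.

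Lower bins on chromosome 3 numbered 18 with centring on the mode of probes or of bins, 62 on chromosomes 2, 5 and 11, 4 with 5 Mb bins (of which there are fewer) and 0 to 52 with a tumour left out. Over the 4 chromosomes, lower bins numbered 24 on the mode of probes, 119 on chromosomes 2, 5 and 11, 4 with 5 Mb bins and 0 to 102 with a tumour left out. Higher bins numbered 0 on either mode, 3 on chromosomes 2, 5 and 11, 2 with normexp, 7 with lowess, 6 with probe base composition taken out, 0 with 5 Mb bins and 0 to 47 with a tumour left out. Bin counts thus changed with the centring.

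The percentage of probes in called segments in tumours 239, 240, 244 and 252 was 11.2, 9.86, 1.54 and 9.495 at a threshold of 0.1, and 2.99, 1.73, 1.40 and 1.20 with lone outlying probes drawn in. Normexp gave 1.5, 0.163 and 1.42 in tumours 240, 244 and 252, lowess 3.06 and 0.653 in tumours 239 and 240, and base composition 0.117, 1.46 and 0 in tumours 239, 240 and 252. A threshold of 0.3 gave 0.206 in tumour 239, segments of at least 10 probes 0.195 and 0.305 in tumours 244 and 252, dim probes left out 0.335 in tumour 252 and merging at 0.05 0.0816 there.

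Listed genes called lower numbered 33 with normexp, 10 with at least 3 probes and 7 to 19 with a tumour left out, and those called higher 21 with at least 3 probes and 17 to 31 with a tumour left out. Normexp turned Wnt5a to 0.288, Klf5 to -0.182, Pim1 to 0.383 and Gclm to 0.207. Where no construction of the alternative shows it, the cause was not tested. Centring on the mode of bins, base composition and merging at 0.05 were alternatives chosen after seeing the data. No paired analysis was possible because the tumours form 1 group and their numbers name animals. Precision is limited by 4 arrays without a dye swap or a normal-against-normal array.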
